A study of Mus musculus with 6 samples.

Results

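Duxf3 and Zfp352 are genes of the 2-cell programme, the transcripts that mouse embryos express at zygotic genome activation, and they were examined as exceptions to the pattern of DPPA4 binding around other genes of that programme. They were 2 of the 55413 genes that GENCODE vM21 places on chromosomes 1 to 19, X and Y, and were chosen by the number of GFP-positive peaks around them that lacked a partner in the GFP-negative list, which was low beside other 2-cell genes. Those counts and partners, and the strengths that go with them, are therefore given as a description, with no test. DPPA4 occupancy had been profiled by CUT&RUN, which sequences the DNA fragments that an antibody-tethered nuclease cuts free around a bound protein. All 6 samples came from one engineered line of mouse embryonic stem cells (mESCs), named EHMT2-dTAG-mcherry-mervl-gfp, on a BL6/129 hybrid background. In this line EHMT2, a methyltransferase that deposits H3K9me2, carries the dTAG degradation tag, and a GFP reporter is driven by the promoter of the retroviral element MERVL. Every group, controls included, carried the tagged EHMT2 and was exposed to dTAG for 72 h, so no EHMT2-replete cells were among these samples. The methods of the study state that lines were expanded from picked colonies, and the labels do not say whether more than 1 clone was used. Cells were sorted live by GFP, the GFP-negative fraction representing mESCs and the GFP-positive fraction 2-cell-like cells (2CLCs). DPPA4 was profiled in 2 libraries from each fraction, and IgG in 1 library from the GFP-negative fraction and 1 from bulk cells. Both libraries of a fraction were pooled into 1 peak list before deposit, so that no value has a spread between replicates, and the number of reads that filtering left behind each list is not given in the sources used here.

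DUX, the product of Duxf3, is a transcription factor with a pair of homeodomains that activates MERVL and many 2-cell genes, and its gene lies in a tandem array of related copies. Zfp352 encodes a C2H2 zinc finger protein expressed around the 2-cell stage. Zscan4a to Zscan4f, a cluster of SCAN-domain zinc finger genes and pseudogenes on chromosome 7, are common markers of 2CLCs and serve here as the contrast. DPPA4 binds DNA together with DPPA2 and is known to act upstream of Dux in mESCs.

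Sequences that carry the description are shown first, in mm10 coordinates and read from the RefSeq genome sequence of GRCm38.p6, each written 5′ to 3′ on the named strand. The strongest GFP-positive peak over Duxf3 had its summit in the coding exon, and the 151 bases around it (chr10:58232433-58232583, minus strand) are set beside the matching stretch of AW822073 (chr10:58224754-58224904, minus strand), a Duxf3 copy that holds a peak of similar strength. The single base in capitals is the only one that differs, and the other 150 are the same.
Duxf3: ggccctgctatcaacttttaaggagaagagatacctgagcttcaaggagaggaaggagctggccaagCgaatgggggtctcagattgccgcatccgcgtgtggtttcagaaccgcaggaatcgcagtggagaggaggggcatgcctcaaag
AW822073: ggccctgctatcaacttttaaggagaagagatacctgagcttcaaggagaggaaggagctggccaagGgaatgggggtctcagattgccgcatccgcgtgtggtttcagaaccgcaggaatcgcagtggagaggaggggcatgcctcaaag
A further peak upstream of the array gene Gm4981 had a summit sequence (chr10:58237362-58237512, minus strand, the central 21 bases in capitals) that is identical over all 151 bases to a stretch upstream of Duxf3 (chr10:58233273-58233423), itself inside the large Duxf3 peak.
Gm4981 upstream: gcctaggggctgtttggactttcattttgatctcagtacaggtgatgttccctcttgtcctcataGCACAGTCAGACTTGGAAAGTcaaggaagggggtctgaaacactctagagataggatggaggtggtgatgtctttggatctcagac
Zfp352 had no peak over its start. The 250 bases before that start, taken from the RefSeq promoter table (chr4:90218570-90218819, plus strand), are shown because no peak covered them, and they hold a short tandem repeat whose most frequent 11-base word is in capitals.
Zfp352 promoter: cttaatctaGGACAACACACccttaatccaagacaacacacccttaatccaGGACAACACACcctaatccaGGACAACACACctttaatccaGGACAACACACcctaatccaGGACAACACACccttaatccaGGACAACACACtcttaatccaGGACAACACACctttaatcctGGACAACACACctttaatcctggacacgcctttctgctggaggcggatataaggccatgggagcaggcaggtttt
The word GGACAACACAC, searched on both strands, occurred 8 times in this stretch, always on the strand of the gene, and was found before the start of 1 of 32851 RefSeq promoters (0.00304%), that of Zfp352 itself. The word was chosen after the sequence was seen, and its link to DPPA4 was not tested. The only peak within 20 kb of Zfp352 came from the GFP-negative list (chr4:90203486-90203694, plus strand) and is shown with the 21 bases around its summit in capitals.
Zfp352 GFP-negative-only peak: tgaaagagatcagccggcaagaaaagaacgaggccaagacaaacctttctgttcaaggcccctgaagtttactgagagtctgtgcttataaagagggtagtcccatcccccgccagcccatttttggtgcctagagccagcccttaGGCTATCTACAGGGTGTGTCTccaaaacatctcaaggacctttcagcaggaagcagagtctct
The strongest of the GFP-positive peaks without a partner in the Zfp352 window lay in repeated sequence. The 151 bases around its summit (chr4:90317394-90317544, plus strand) are shown with the central 21 in capitals.
Zfp352 GFP-positive-only peak: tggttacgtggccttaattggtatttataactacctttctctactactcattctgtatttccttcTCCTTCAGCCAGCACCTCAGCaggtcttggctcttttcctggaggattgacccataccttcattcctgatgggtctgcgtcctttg
For the contrast, the summit of a GFP-positive peak in Zscan4c (chr7:11006638-11006788, plus strand, the central 21 bases in capitals) is identical over all 151 bases to a stretch of Zscan4f (chr7:11398831-11398981).
Zscan4c: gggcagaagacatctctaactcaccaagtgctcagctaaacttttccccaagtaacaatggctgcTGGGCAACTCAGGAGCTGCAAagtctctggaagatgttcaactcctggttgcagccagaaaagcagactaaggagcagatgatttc

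A peak of one list had a partner when a peak of the other list shared at least 1 bp with it, and a GFP-positive peak without a partner is called GFP-positive-only. Windows ran from 200 kb before to 200 kb after each gene body. The strength of a peak is given by the authors' −log10 q, the adjusted significance of its summit, and by their fold enrichment over the local background. Both depend on the depth of the list, so a peak is also placed by its rank within its own list, as a share of the list length. Tied peaks all take the best rank of their tie. Over the whole genome the GFP-negative list held 83602 mouse peaks and the GFP-positive list 54642. Of the GFP-positive peaks 33.5% had no partner, and of the GFP-negative peaks 55.7% had none.

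Duxf3 (ENSMUSG00000075046.7, chr10:58229979-58232675, minus strand) was covered by DPPA4 peaks in both cell states, and the peaks were in nearly the same places. Its window held 11 GFP-positive and 10 GFP-negative peaks. Of these, 8 of each list paired with each other, 3 GFP-positive peaks had no partner (27.3%, Wilson 95% interval 9.75 to 56.6) and 2 GFP-negative peaks had none. The interval covers counting error only and treats neighbouring peaks as independent. Over the whole list the share was 33.5%. With the GFP-negative list cut to the size of the GFP-positive one, the share without partner at Duxf3 was 54.5% (6 of 11). In the 10000 strongest peaks of each list it was 50% (3 of 6). Both values lie within the counting interval, and the share over the whole list was not computed under these cuts. Zfp352 (ENSMUSG00000070902.5, chr4:90218820-90225702, plus strand) was the opposite case, a gene with almost no DPPA4 peaks in either state. Its window held 4 GFP-positive peaks, of which 3 had no partner (75%, 30.1 to 95.4), and 2 GFP-negative peaks, of which 1 had none. Within 500 kb the share at Zfp352 was 37.5%. The 2 genes were thus alike in the number of GFP-positive-only peaks, 3 each, and unlike in the number of pairs, 8 at Duxf3 and 1 at Zfp352.

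**Figure D1:**
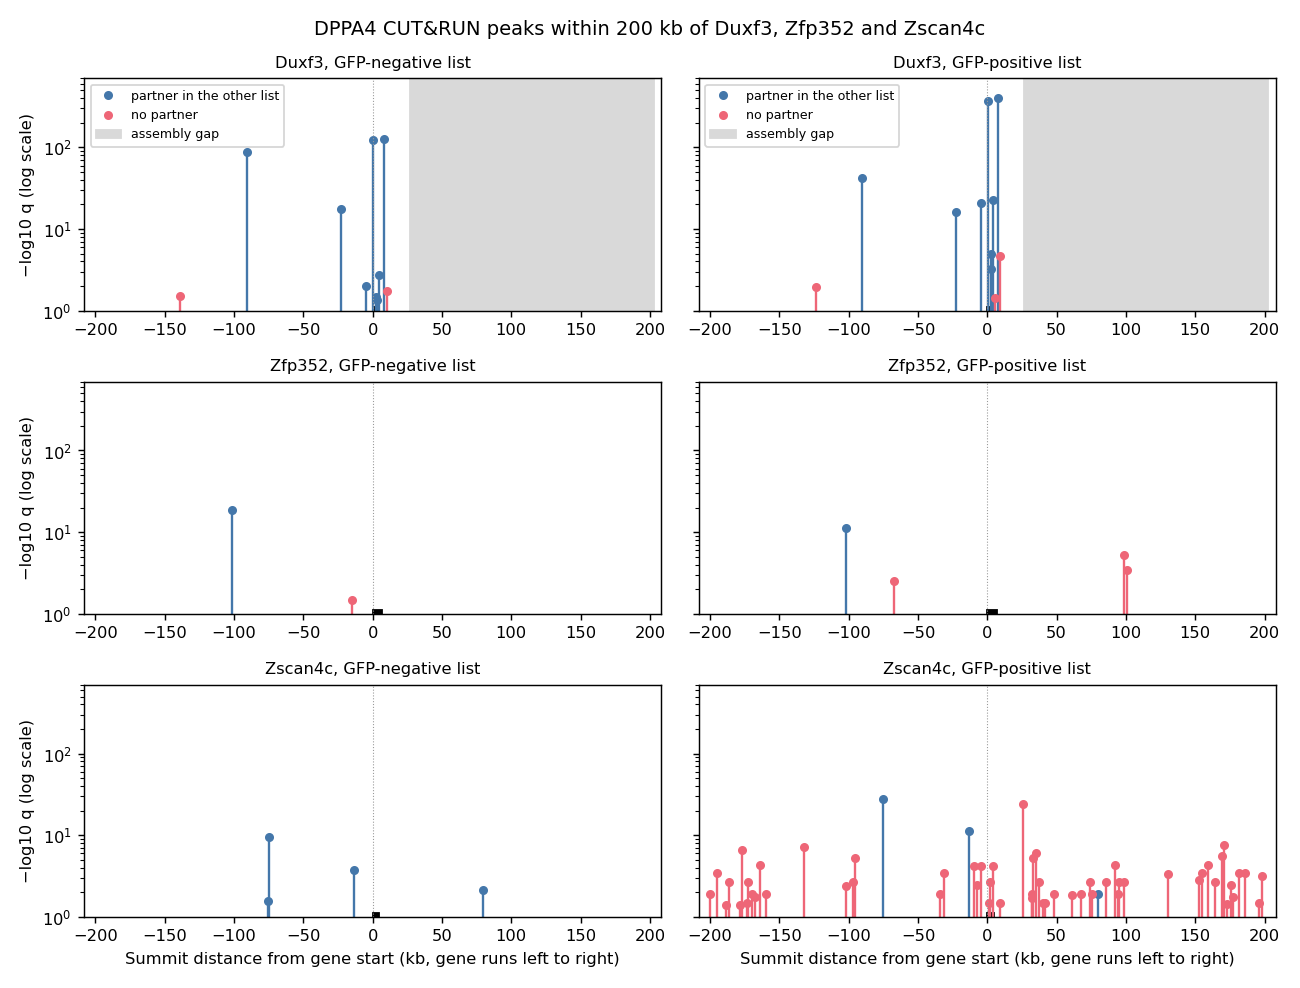
DPPA4 peaks within 200 kb of Duxf3, Zfp352 and Zscan4c, with the distance of each summit from the gene start in kb on the x axis and −log10 q on a log y axis, in the GFP-negative list (left) and the GFP-positive list (right). Blue peaks have a partner in the other list, red peaks have none, and grey marks the assembly gap beside Duxf3. Peaks crowd at the Duxf3 start in both lists, the Zfp352 gene has none in the GFP-positive list within 67.1 kb, and Zscan4c is surrounded by red GFP-positive peaks.

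The largest peaks at Duxf3 lay over its start. The GFP-positive peak spanned chr10:58231201-58234024 (2824 bp) with a −log10 q of 365.3 and a fold enrichment of 21.7, and ranked 5 of 54642 by −log10 q. The GFP-negative peak spanned chr10:58231258-58234012 (2755 bp) with a −log10 q of 123.7 and a fold enrichment of 11.2, and ranked 130 of 83602. The GFP-negative peak lay wholly within the GFP-positive one, and their summits were 1 bp apart, 167 and 168 bp inside the gene in the coding exon. DPPA4 peaks thus lay at the same place in both sorted states, and by −log10 q were among the strongest of either list. By fold enrichment the order within each list was lower, 250 in the GFP-positive and 8242 in the GFP-negative list.

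The strongest peak of the window lay 3.79 kb downstream, over AW822073, a protein-coding copy of the same family. The GFP-positive peak (chr10:58223675-58226190, 2516 bp) had a −log10 q of 401.8 and a fold enrichment of 19.7 and ranked 3 in its list. The GFP-negative peak (chr10:58223936-58225786, 1851 bp) had a −log10 q of 127.0 and a fold enrichment of 9.71 and ranked 111. Their summits were 6 bp apart, again in a coding exon. In each list Duxf3 and AW822073 thus carried peaks of near-equal strength. Reads that match both copies were placed at a single best or random position, so these strengths are not separate measurements. The stretch of AW822073 printed above lies inside its peak, with the summit of that peak just downstream of it.

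Weaker paired peaks lay between and beside them. Over Gm10807, an unprocessed pseudogene, a GFP-positive peak (chr10:58227847-58228491, 645 bp, −log10 q 22.5) covered a GFP-negative peak (chr10:58228177-58228368, 192 bp, −log10 q 2.71) with summits 3 bp apart. Upstream of Gm4981, a protein-coding member of the array, a GFP-positive peak (chr10:58237359-58237653, 295 bp, −log10 q 20.5) covered a GFP-negative peak (chr10:58237386-58237554, 169 bp, −log10 q 2.0) with summits 2 bp apart. Both GFP-positive peaks stood high in their list while their partners stood low in theirs, at 7.51% against 63.0% from the top over Gm10807 and at 8.79% against 79.2% upstream of Gm4981. In the UTR of Duxf3 the GFP-positive peak (chr10:58230132-58230452, 321 bp) had a −log10 q of 4.99 and the GFP-negative peak (chr10:58230135-58230310, 176 bp) one of 1.48. Just downstream of the gene the GFP-positive peak (chr10:58229710-58229898, 189 bp) had a −log10 q of 3.25 and the GFP-negative peak (chr10:58229644-58229866, 223 bp) one of 1.33. These GFP-negative partners lay among the weakest of their list, at 93.6% and 99.4% from the top, so the pairing at the 3′ end of Duxf3 rested on peaks just over the calling threshold.

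Within 20 kb of Duxf3 the pairs differed in strength more than in place. All 6 pairs there had the higher −log10 q, the higher fold enrichment and the rank nearer the top in the GFP-positive list, and 5 of 6 were wider in it. In the remaining 2 pairs of the window, which lie at the promoters of other genes, neither the −log10 q nor the fold enrichment was higher in the GFP-positive list, while by rank 1 of the 2 stood nearer the top there. The first was at the promoter of Gcc2, which encodes a golgin, 22.5 kb upstream of Duxf3, where the −log10 q was 15.9 for the GFP-positive peak (chr10:58255209-58255868, 660 bp) and 17.7 for the GFP-negative peak (chr10:58254756-58255806, 1051 bp). By rank the GFP-positive peak stood slightly nearer the top, at 12.4% against 14.0%. The second was at the promoter of Lims1, which encodes a LIM-domain adaptor of focal adhesions, 89.9 kb upstream, where the −log10 q was 42.7 for the GFP-positive peak (chr10:58322565-58324388, 1824 bp) and 87.3 for the GFP-negative peak (chr10:58322585-58324033, 1449 bp). No library-level values stood behind these differences, so none was tested. The 6 pairs near Duxf3 lie in the same repeat array and are not separate observations. How many pairs over the whole genome are stronger in the GFP-positive list was not counted.

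The 5 peaks of the Duxf3 window without a partner were weak, with a −log10 q from 1.42 to 4.63 where the lowest deposited value was 1.3. Of the GFP-positive ones, a peak of 274 bp (chr10:58223162-58223435, −log10 q 4.63, fold enrichment 3.01) lay over a coding exon of AW822073, and one of 162 bp (chr10:58226783-58226944, −log10 q 1.42, fold enrichment 2.21) lay between AW822073 and Gm10807. The third, of 150 bp (chr10:58355901-58356050, −log10 q 1.93), lay 123 kb upstream in an intron of Lims1. The GFP-negative ones were a peak of 172 bp at the far end of the array (chr10:58221999-58222170, −log10 q 1.72) and one of 253 bp in an intron of Lims1 (chr10:58371351-58371603, −log10 q 1.5), 139 kb upstream. None of the 5 touched Duxf3, and the nearest GFP-positive-only peak was 3.04 kb from it. The GFP-positive-only peaks of 274 bp and 162 bp both lay within 1 kb of the paired GFP-negative peak over AW822073. When any peak of the other list within 1 kb counted as a partner, a single GFP-positive-only peak remained (2.48 per Mb).

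**Figure D2:**
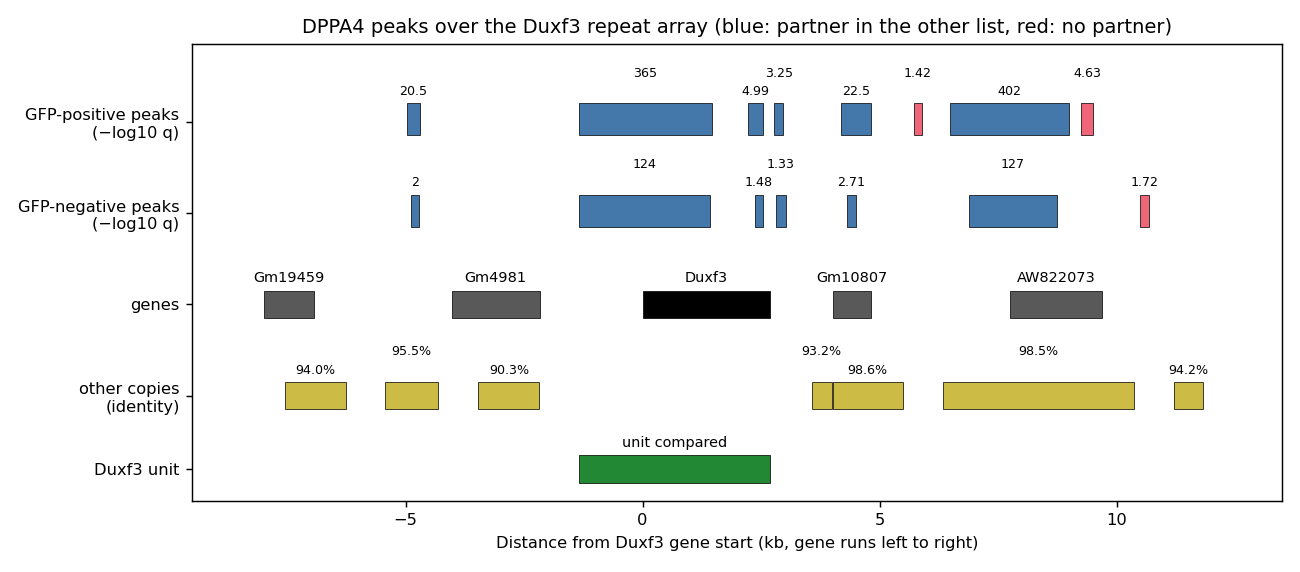
DPPA4 peaks over the Duxf3 array, drawn to scale by distance from the Duxf3 gene start in kb, with peaks of each list as boxes labelled by −log10 q (blue with partner, red without), genes in grey and black, and other copies of the Duxf3 unit in yellow labelled by percent identity. The strongest boxes in both lists lie over Duxf3 and over AW822073, and the GFP-positive values exceed those of their GFP-negative partners in all 6 pairs shown.

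The array itself is repeated sequence, which limits what a position means here. The unit from the 3′ end of Duxf3 to the upstream end of its largest peak (chr10:58229979-58234024, 4046 bp) had 7 other copies of at least 400 aligned bases and 90% identity, all on chromosome 10, and 0 elsewhere. The longest, over AW822073, aligned along 4047 bases at 98.5% identity and began 7.68 kb away. The copy over Gm10807 aligned along 1480 bases at 98.6%, and the upstream part of the unit was found again near Gm4981 along 1133 bases at 95.5%. Those 3 copies were the ones that held peaks of both lists. The copies that overlap Gm4981 (90.3%) and Gm19459 (94.0%), which match the 3′ part of the unit, held 0 peaks of either list, as did the 2 shortest copies. Of the 31-base words in the Duxf3 gene body, 76.9% occurred at least 2 times in the genome, with a median of 2 copies, against 17.3% and a median of 1 for Zfp352. The authors placed a read with several matches at a single best or random position, so signal of Duxf3 and of AW822073 cannot be told apart where the sequences are the same over a whole read pair. Of the 11 GFP-positive peaks, 3 had a summit in sequence with a median copy number of 1, at Gcc2, at the Lims1 promoter and in the Lims1 intron.

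Much of the Duxf3 window could not hold a peak. An assembly gap of 343058 bp began 24.1 kb downstream of the gene (chr10:57862808-58205865) and took 175887 bp of the window, or 43.7%, and copies of the array in that stretch were not analysed here. The 3 GFP-positive-only peaks amounted to 7.45 per Mb over the whole window and to 13.2 per Mb over its 226810 assembled bases. Just outside the window, the next peaks upstream were at 212.8 kb in the GFP-negative and 213.7 kb in the GFP-positive list. Beyond the gap they were at 381.3 kb and 387.5 kb.

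At Zfp352 the gene and its surroundings were empty of GFP-positive peaks. The nearest was 67.1 kb upstream, and the nearest GFP-negative peak 15.1 kb upstream. That GFP-negative peak (chr4:90203486-90203694, 209 bp, printed above) had a −log10 q of 1.45 and a fold enrichment of 3.31 and ranked 78861 of 83602, and so lay just over the threshold. Neither list had a summit in the promoter of Zfp352, defined as 2.5 kb upstream to 0.5 kb downstream of a start, or in the promoters of Gm12629, Gm12633 and Gm12634, the other annotated genes of the window. Over the genome, 57% of protein-coding genes had a promoter summit in both lists, as Duxf3 did.

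The single pair of the Zfp352 window lay 101 kb upstream, with summits 46 bp apart. The GFP-positive peak (chr4:90116526-90117770, 1245 bp) had a −log10 q of 11.3 and a fold enrichment of 7.01, and the GFP-negative peak (chr4:90116667-90117859, 1193 bp) had 18.8 and 10.96. In rank the GFP-negative peak stood nearer the top of its list, at 13.1% against 18.3%, the reverse of the order in the Duxf3 array. The GFP-positive-only peaks were 1 upstream and 2 downstream of the gene. The upstream one (chr4:90151343-90151740, 398 bp) had a −log10 q of 2.48. Those downstream lay next to each other, at 91.4 kb (chr4:90317123-90317813, 691 bp, −log10 q 5.19) and 92.3 kb (chr4:90318035-90320423, 2389 bp, −log10 q 3.44). All peaks of the Zfp352 window were intergenic, and the strongest ranked 9973 in the GFP-positive and 10974 in the GFP-negative list.

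The peaks around Zfp352 were of another sequence kind than those around Duxf3. Soft-masked bases, which mark interspersed repeats and low-complexity sequence, made up a median of 95.5% of the GFP-positive peaks at Zfp352, 8.11% of those at Duxf3 and 17.6% of the whole list. The Zfp352 window as a whole was 48.5% soft-masked. The 31-base words at the 3 GFP-positive-only summits occurred with a median of 28, 489.5 and 638 copies in the genome, and those at the paired GFP-positive summit with a median of 814. The GFP-negative-only peak at 15.1 kb was the exception in copy number, with a median of 1 copy around its summit, although 66.0% of its bases were soft-masked. At Duxf3 the copy number of the GFP-positive summits ran from 1 to 5. Whether reads over these summits could be placed at a single copy was not tested.

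**Figure D3:**
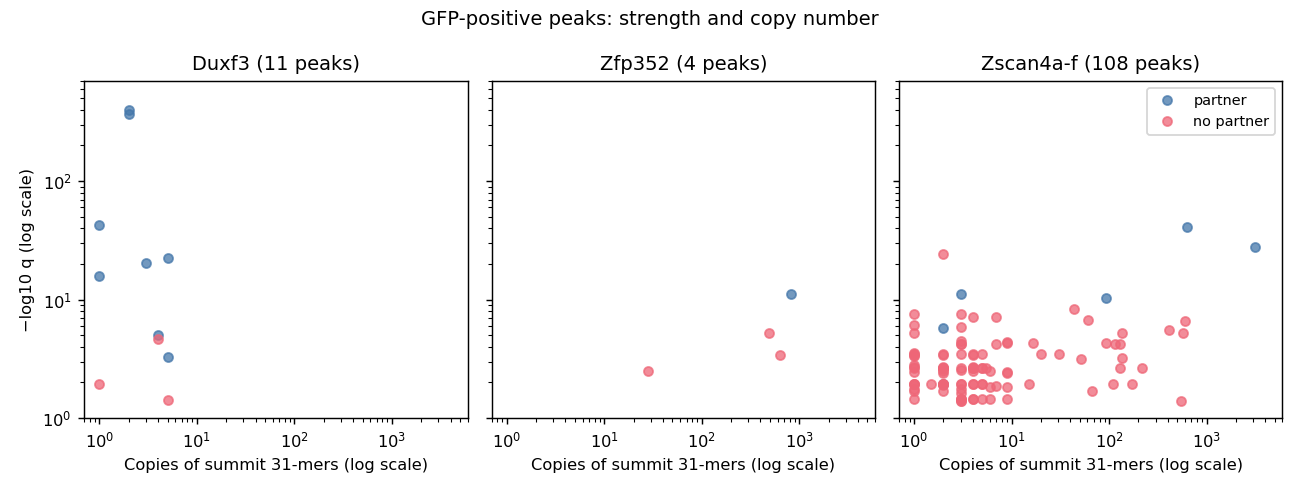
Strength of each GFP-positive peak (−log10 q, log y axis) against the median genomic copy number of the 31-base words in the 200 bp around its summit (log x axis), in the windows of Duxf3 (11 peaks), Zfp352 (4 peaks) and Zscan4a to Zscan4f (108 peaks), with partnered peaks in blue and others in red. Duxf3 summits lie at 1 to 5 copies and reach a −log10 q of 401.8, Zfp352 summits lie at 28 copies or more, and Zscan4 summits spread from 1 to 3112.5 copies.

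Against both genes, the Zscan4 cluster was dense in GFP-positive-only peaks. The union of the windows of Zscan4a to Zscan4f (chr7:10594242-11602318, 1008077 bp, no assembly gap) held 108 GFP-positive peaks, of which 102 had no partner (94.4%, 88.4 to 97.4), and 8 GFP-negative peaks, of which 1 had none. That was 101.2 GFP-positive-only peaks per Mb, 13.6 times the density at Duxf3 and 13.7 times that at Zfp352. Over assembled bases the ratio to Duxf3 was 7.65. The density of paired GFP-positive peaks went the other way for Duxf3, with the Zscan4 cluster at 0.30 times Duxf3 and 2.42 times Zfp352.

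The contrast changed with distance and with strength. Within 20 kb of the gene bodies there were 35 GFP-positive-only peaks at Zscan4a to Zscan4f, 2 at Duxf3 and 0 at Zfp352. Because that window is small, 2 peaks gave Duxf3 46.8 per Mb, against 130.9 per Mb for the Zscan4 genes. All 6 Zscan4 genes, Zscan4a being annotated as an unprocessed pseudogene, had 1 to 3 GFP-positive peaks over the gene body, none with a partner, where Duxf3 had a paired peak over its start and Zfp352 had none. The Zscan4 peaks were weak, with a median −log10 q of 2.66 for GFP-positive-only peaks, against 3.44 over the whole GFP-positive list. Of the 102, 14 reached 5, where 37.7% of the whole GFP-positive list did. When peaks with a −log10 q under 5 were dropped from both lists, the ratio of densities fell to 3.40 for Duxf3 and 6.86 for Zfp352. The Duxf3 peaks that then counted as unpaired (2 of 6) were those over Gm10807 and upstream of Gm4981. Both had GFP-negative partners under the cut. With partners sought in the full lists, the GFP-positive-only peaks that reached 5 numbered 0 at Duxf3, 1 at Zfp352 and 14 at Zscan4. In lists cut to their 10000 strongest peaks the contrast with Duxf3 turned over, with 7.45 per Mb at Duxf3 (3 of 6 peaks) against 1.98 per Mb at Zscan4 (2 of 3 peaks) and 0 at Zfp352. That selection broke ties by position, and 368 GFP-positive peaks shared the −log10 q of the last one kept, among them the paired Zfp352 peak, which ranked 9973. With all tied peaks kept, a choice made after seeing the data, Duxf3 stayed at 7.45 per Mb, Zscan4 had 2.98 per Mb (3 of 4 peaks) and Zfp352 2.46 per Mb (1 of 1 peak, its partner ranking 10974). The 3 Duxf3 peaks that then stood alone were those over Gm10807, upstream of Gm4981 and at Gcc2, each of which has a partner in the full GFP-negative list that ranks below the 10000 kept. In the Zscan4 cluster, 84 of the 102 GFP-positive-only summits (82.4%) lay in sequence of at least 2 copies, as did all 6 of the paired GFP-positive summits. Copy number was not counted over the whole list.

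Among all 21938 protein-coding genes, the density of GFP-positive-only peaks around Duxf3 and Zfp352 was near the median when assembly gaps were counted in the window. The median gene had 7.48 per Mb, with quartiles of 2.43 and 19.8, and 49.5% of genes lay below Duxf3 and 48.2% below Zfp352. Over assembled bases alone Duxf3 had 13.2 per Mb, and its place among all genes was not computed on that basis. Peaks of either list were scarce at Zfp352, with fewer GFP-positive peaks at 12.5% of genes and fewer GFP-negative peaks at 4.01%. A low number of GFP-negative peaks was not particular to it, since Zscan4e, Obox7, Obox8 and further genes of the 2-cell list also had 2. For Duxf3 those shares were 43.4% and 28.1%. Zscan4c, with 140.8 per Mb, was exceeded by 10 protein-coding genes.

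As a group, other genes of the 2-cell programme had higher densities, although neighbours in a cluster share peaks and are not independent. Of 34 others on a list that was set with earlier results of these data known, all 34 had at least 1 GFP-positive-only peak and a higher density over the whole window than Duxf3 and Zfp352. Per assembled base, 32 were above Duxf3. Their median was 81.4 per Mb, and the median share of GFP-positive peaks without a partner was 86.4%, against 25.9% over all protein-coding genes. The highest were Tdpoz3 (164.5 per Mb) and Tdpoz4 (149.6 per Mb), BTB-domain genes expressed in early embryos, and the lowest were Obox8 (9.95 per Mb), an oocyte homeobox gene, and Spz1 (9.96 per Mb), a spermatogenic zipper gene. Spz1 was the gene most like Duxf3 in density and share together, with 28.6% of its 14 GFP-positive peaks unpaired. Obox8 was nearest to Zfp352 in density, with 66.7% of 6 unpaired, but unlike Zfp352 it had a GFP-positive summit in its promoter. Obox7 had the same share as Zfp352, 75%, and no promoter summit, at a density of 14.8 per Mb. These likenesses rest on 2 pooled lists and were not tested.

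Promoter summits separated Duxf3 and Zfp352 in a different way. Of the 34 genes, 20 had a promoter summit in the GFP-positive list alone, 0 in the GFP-negative list alone, 12 in neither list and 2, Dppa2 and Spz1, in both. In the same order, the counts over all 21938 protein-coding genes were 509, 2375, 6553 and 12501. A promoter without a summit was thus also common outside this list. Duxf3 belonged with the last group and Zfp352 with those that had none. Even the genes without a promoter summit had a GFP-positive peak close by, since the nearest lay within 12.3 kb for all 34, Obox7 being the farthest, against 67.1 kb for Zfp352. Zfp352 was therefore the only gene of the 36 with no GFP-positive peak within 20 kb. How many of all protein-coding genes lack a GFP-positive peak within that distance was not counted.

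**Figure D4:**
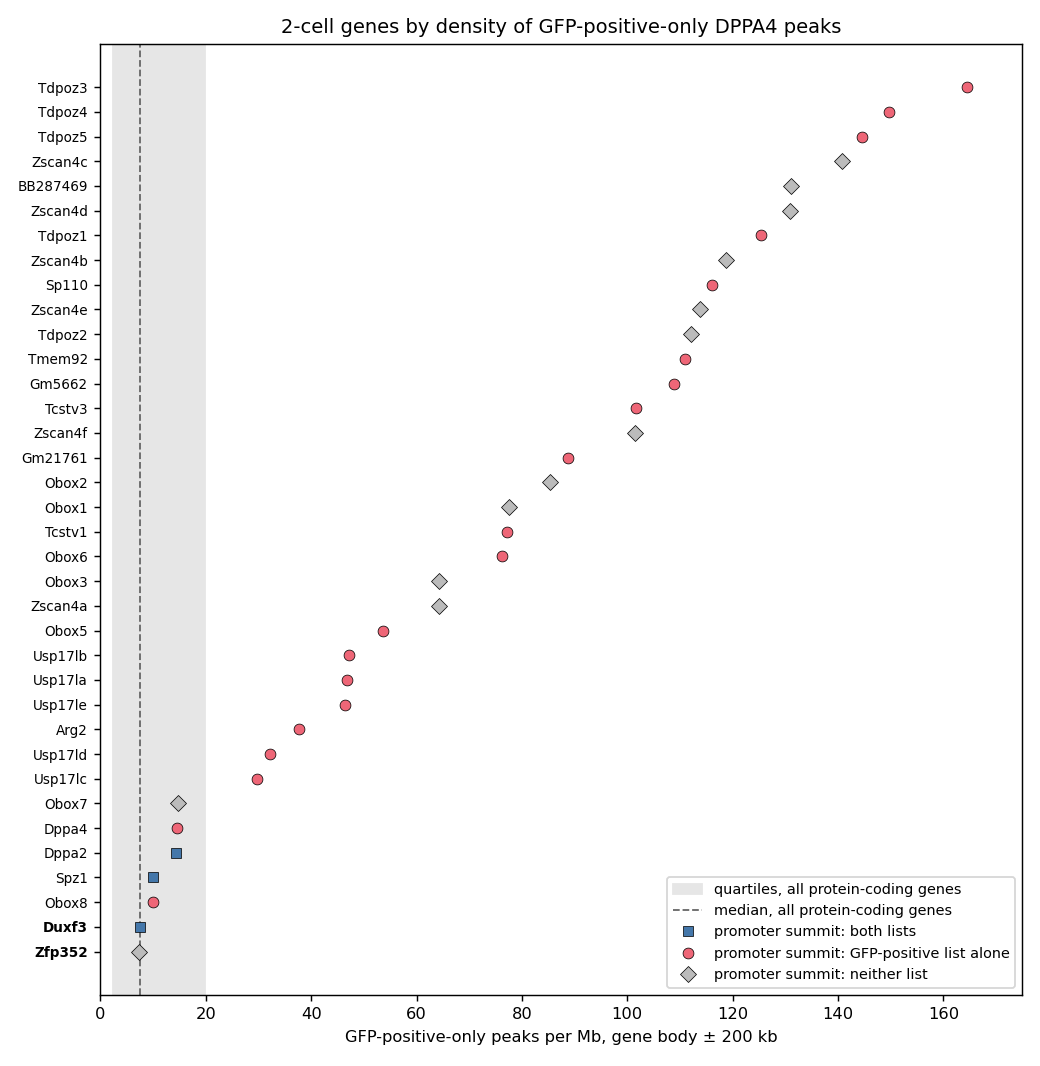
GFP-positive-only DPPA4 peaks per Mb of window (x axis, gene body ± 200 kb, assembly gaps included) for Duxf3, Zfp352 and the 34 other 2-cell genes, 1 point a gene, with the symbol showing which lists have a summit in the promoter. The dashed line and grey band give the median (7.48) and quartiles (2.43 and 19.8) of all protein-coding genes, and Duxf3 and Zfp352 are the lowest points, at 7.45 and 7.37 per Mb.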

How the data were processed

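DPPA4 peak lists of GFP-negative and GFP-positive cells were analysed. According to the study's methods and the submitters' processing notes (STAR 2.7.10, Picard 2.26.0, SAMtools 1.14, bedtools 2.30.0, MACS2 2.2.6, build mm10), the authors trimmed adapters, aligned with STAR placing each multimapping read at a single best or random position, removed duplicates and blacklisted high-signal regions, and called MACS2 peaks on fragments. Whether IgG served as a control is not given in the sources used here, and the IgG libraries were not used here. The deposited fold enrichment is the authors' ratio of the summit to the MACS2 background, and the deposited −log10 q is its adjusted significance. The deposited score and −log10 p were not used. The count of unused per-sample columns was 0.

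Windows, partners and Wilson 95% intervals were computed in Python 3.11.15 with pandas 2.3.3 and scipy 1.17.1, on chromosomes 1 to 19, X and Y, with GENCODE vM21 genes. The sequence of GRCm38.p6 was read with pysam 0.24.0, copies of Duxf3 were found with BLAST 2.17.0, and copy number was the median count of 31-base words, on both strands, in 200 bp around a summit. The partner count was tested on simulated data. The members and lists were chosen with earlier results of these data known. Named genes were Duxf3, Zfp352, Zscan4a to Zscan4f, genes of the windows, and the highest 2, lowest 2 and most alike of the 2-cell list. Peaks were given in full for a gene with up to 12, and otherwise within 20 kb and by strength, to which the pair at Gcc2 was added after its values were seen. Alternatives changed the window, the partner rule, the threshold, the list sizes and the length used.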

Additional observations from a re-analysis of the deposited data

Results flagged for a closer look

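Sequences of organisms other than mouse carried 1575 of the deposited GFP-negative peaks and 5 of the GFP-positive ones, and no comparison of Duxf3 or Zfp352 used them.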

How the results depend on the processing

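No paired analysis was possible because each list pools the libraries of its group, and for the same reason no library could be left out. Of 60 densities and shares under alternative settings, 39 stayed within 1.5 times (densities) or the counting interval (shares) of the reported value and 21 moved, and the order of Zscan4 over Duxf3 turned over in the 10000 strongest peaks (ratio 0.266, or 0.399 with ties kept, against 13.6). GFP-positive-only peaks per Mb at Duxf3 moved from 7.45 to 19.5 within 50 kb, 14.9 with the GFP-negative list cut to the size of the other, 13.2 over assembled bases and 2.48 with a gap of up to 1 kb allowed, which also moved the share without partner to 9.09%. At Zfp352 the density moved from 7.37 to 0 within 50 kb, 2.98 within 500 kb, 2.46 with peaks under a −log10 q of 5 dropped and 0 in the 10000 strongest peaks, with ties broken by position. At Zscan4a to Zscan4f it moved from 101.2 to 16.9 with peaks under a −log10 q of 5 dropped and to 1.98 in the 10000 strongest peaks, and the share moved from 94.4% to 98.1% under 50% reciprocal overlap and to 66.7% in the 10000 strongest. With tied peaks kept, chosen after seeing the data, the density was 2.46 at Zfp352 (share 100%) and 2.98 at Zscan4a to Zscan4f (share 75%). With summits in single-copy sequence alone, likewise chosen after seeing the data, the densities were 2.48 at Duxf3, 0 at Zfp352 and 16.9 at Zscan4a to Zscan4f, with a Zscan4 share of 100% (17 of 17). The share at Zfp352 has no value within 50 kb, in the 10000 strongest peaks with ties broken by position, or in single-copy sequence, where no GFP-positive peak is left. The fewer peaks and bases follow from how these alternatives are built, and no other cause was tested. Peak number rises with depth. The study's methods give 1 sequencing depth for all samples, and the reads left after filtering are not given in the sources used here.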
